A study of Mus musculus with 71 samples.

Results

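The proteasome subunit genes are the 48 genes, of 21527 in the deposited tables, whose symbols begin with Psma, Psmb, Psmc, Psmd, Psme, Psmf or Psmg followed by a number. They were chosen by name, with no measured value in the rule. By role they divide into 7 subunits of the 20S alpha ring, 7 of the 20S beta ring, 5 immunoproteasome and tissue-specific 20S subunits, 6 ATPases of the 19S base, 11 other 19S subunits, 5 activators or inhibitors and 6 assembly chaperones. The remaining match, Psmc3ip, encodes a meiotic recombination protein and is not a subunit.

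The genes were measured by SLAM-seq in male mouse embryonic stem cells (mESCs) grown in 2i/LIF medium, which holds the cells in a naive pluripotent state. All labelled cells received 100 µM 4-thiouridine (s4U), a uridine analogue read as T-to-C conversions after alkylation, for 24 h, followed by a chase with excess uridine. Either 20 µM STM2457, an inhibitor of the m6A methyltransferase Mettl3, or DMSO alone, its solvent, was given from 6 h ahead of the chase and kept in the medium. Cells were lysed at 0, 1, 1.5, 2.3, 3.5, 5.3, 8 and 12 h of chase (labelled T0 to T7), so that the longest inhibitor exposure was 18 h, and unlabelled cells of each treatment (no 4SU) were sequenced alongside. The 18 groups held 4 libraries each, except STM2457 at 3.5 h with 3, which gave 71 libraries of 1 cell line. The study describes its replicates as biologically independent, while the labels do not say whether they came from separate cultures, and p-values measure the spread between these libraries.

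The proteasome is the protease that degrades most ubiquitin-tagged proteins in the cell. Its barrel-shaped 20S core holds the proteolytic sites inside stacked rings of alpha and beta subunits, and the 19S particle on its end recognises the ubiquitin chain, removes it and threads the protein into the barrel with a ring of ATPases. The subunits are needed in fixed proportions and their genes are known to be raised together when proteasome activity is blocked. In mRNA, Mettl3 places m6A mostly at the A of GGAC-type motifs, and m6A is known to shorten the life of many transcripts.

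The libraries held between 4539726 and 7368244 reads (median 5726508). The 3′ end of each transcript was counted, so counts do not scale with transcript length, and levels are compared only within a gene. They are given as CPM, read counts scaled to the total of the library. Markers of naive mESCs summed to 3291 to 4696 CPM in DMSO and 3597 to 4525 CPM in STM2457, against at most 23.2 CPM for feeder cell markers. In bulk samples, fewer cells of a type and less RNA per cell cannot be told apart. The leading component of the scatter between libraries of the same group, computed from 6231 other genes with a mean above 20 CPM, carried 34.5% of that scatter. Its score ran from -0.71 to 0.18, and 12 libraries lay below -0.2, of which 9 were DMSO and 3 STM2457.

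Of the 48 genes, 46 passed the filter on low counts. Psmb11, the thymus-specific catalytic subunit, had 0 reads in the 71 libraries. Psme2, a subunit of the interferon-inducible PA28 activator, had 64 reads in total and at most 1.83 CPM in any library.

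Under inhibition of Mettl3 the proteasome genes differed by small amounts, mostly downward, relative to the rest of each library. The paper warns that scaling to total transcripts can bias results, above all when a treatment affects most genes. For its RNA-seq it scaled to added control RNAs or to genes without m6A sites, which was not done here. Whether the absolute amounts fell was not tested. Averaged over the 8 chase times, 20 of the 46 tested genes fell and 2 rose (edgeR's quasi-likelihood test with Benjamini-Hochberg adjustment, adjusted p below 0.01). Among all 12659 genes tested, 12.6% fell and 13.9% rose. The median change was -0.11 on the log2 scale for the proteasome genes and -0.01 for all genes, and 39 of 46 proteasome genes (84.8%) lay below 0 against 51.1% of all genes. The summed level of the 48 genes at 0 h was 13332 ± 206 CPM in DMSO and 12707 ± 33.5 CPM in STM2457 (SD, n = 4 each). At 12 h it was 13998 ± 123 CPM and 13168 ± 258 CPM. All STM2457 sums lay below all DMSO sums at both times, at differences of -4.69% and -5.93% of the DMSO mean. Without Psmd7, the member that rose most, the differences were -6.49% and -9.87%. The sums of the 48 genes overlapped in unlabelled cells, at 1 h and at 5.3 h, where the difference was -2.12%. With TMM-scaled library sizes the differences were -3.36% at 0 h, -0.613% at 1.5 h, 0.0617% at 5.3 h and -3.2% at 12 h. With this scaling the treatments overlapped at all of these times, at 1 h and in unlabelled cells, but stayed apart at 2.3, 3.5 and 8 h.

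The genes that rose were Psmd7 (ENSMUSG00000039067.5) and Psmd5 (ENSMUSG00000026869.12). Psmd7 encodes Rpn8, the non-catalytic partner of the deubiquitinase Rpn11 in the 19S lid. At 0 h its level in the 4 DMSO libraries was 790.3, 802, 869 and 834 CPM, and in the 4 STM2457 libraries 1036, 1023, 1015 and 969 CPM. At 12 h the DMSO libraries held 925, 911, 885 and 952 CPM and the STM2457 libraries 1254, 1404, 1438 and 1419 CPM. The groups did not overlap at either time, and all STM2457 libraries lay above all DMSO libraries at 7 of the 9 times. Averaged over the chase Psmd7 rose by 37.8% (log2 0.46, SE 0.03, edgeR adjusted p = 7.68e-22). The difference was 0.31 on the log2 scale at 0 h (edgeR adjusted p = 0.0143), passed the threshold from 1.5 h onward and was 0.63 at 12 h (edgeR adjusted p = 2.17e-08). The call at 1.5 h (log2 0.29, edgeR adjusted p = 0.00951) was lost on reads mapping to one place, with the library component as a covariate and without the 12 low libraries, while those at 5.3 and 12 h were kept in all 3. From 0 to 12 h of chase Psmd7 rose by 0.33 in STM2457 (edgeR adjusted p = 0.00399) and differed by 0.02 in DMSO (edgeR adjusted p = 0.903), but the test of the change in the treatment effect, 0.31 with SE 0.12, did not pass (edgeR adjusted p = 0.154).

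Psmd5 encodes a chaperone that binds an ATPase of the 19S base and leaves the finished particle. At 5.3 h the DMSO libraries held 105, 93.2, 82.4 and 89.9 CPM and the STM2457 libraries 135.4, 139.8, 120.1 and 119.5 CPM. These groups did not overlap, and the same was found at 6 of the 9 times sampled. Psmd5 rose by 25.4% over the chase (log2 0.33, SE 0.04, edgeR adjusted p = 4.86e-10), with 0.51 at 5.3 h (edgeR adjusted p = 0.00152).

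**Figure D1:**
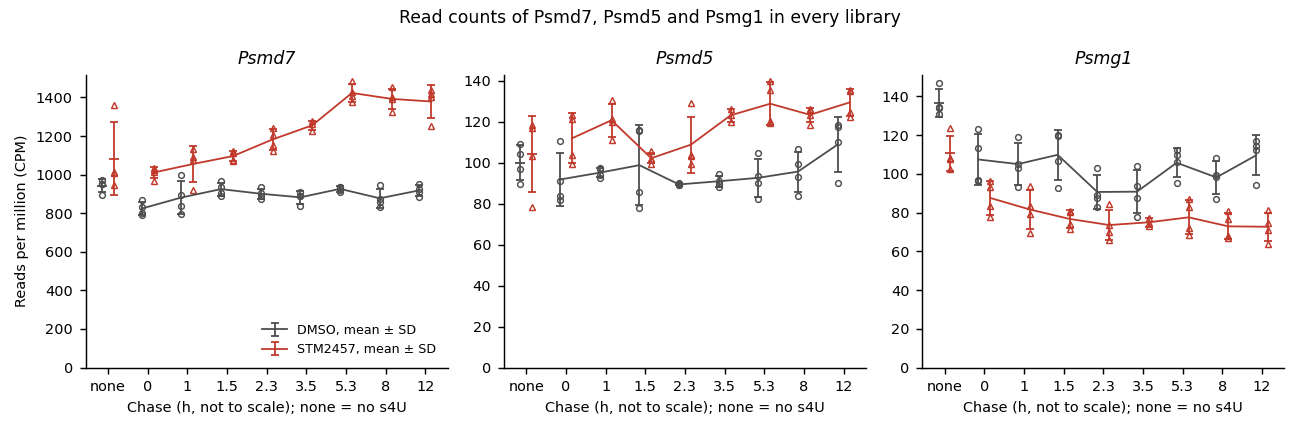
Read counts scaled to the library total (CPM, vertical axis) of Psmd7, Psmd5 and Psmg1 against hours of chase, with unlabelled libraries at the left, one point per library and lines and bars for the mean and SD of DMSO and STM2457. STM2457 libraries mostly lie above DMSO for Psmd7 (at 12 h 1254 to 1438 against 885 to 952 CPM) and below DMSO for Psmg1.

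Psmg1 (ENSMUSG00000022913.16), which encodes a chaperone that starts the assembly of the alpha ring, fell. At 0 h it held 123, 113.5, 96.5 and 96.6 CPM in DMSO and 96.3, 93.3, 83.3 and 77.5 CPM in STM2457. At 12 h the DMSO libraries held 117, 94.4, 112 and 114 CPM and the STM2457 libraries 74.8, 81.1, 71.2 and 63.7 CPM. STM2457 lay below DMSO without overlap at 7 of the 9 times, 0 and 12 h among them. Over the chase Psmg1 fell by 23.5% (log2 -0.39, SE 0.04, edgeR adjusted p = 1.05e-12). Of the other assembly chaperones, Psmg2 (-0.23) and Psmd9 (-0.25) also fell, while Psmg4 (-0.08, edgeR adjusted p = 0.353) and Psmd10 (0.02, edgeR adjusted p = 0.763) did not pass. Psmd9 no longer passed with the library component as a covariate.

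The alpha ring, whose subunits form the gate of the barrel, had 5 of 7 members lower and none higher, with a median of -0.19. They were Psma1 (-0.24), Psma4 (-0.29), Psma5 (-0.14), Psma6 (-0.23) and Psma7 (-0.19). Psma4 held 292, 246, 217 and 227 CPM in the DMSO libraries at 0 h and 170.3, 172, 168 and 134 CPM in the STM2457 libraries. At 12 h the DMSO libraries held 156, 158, 199 and 165 CPM and the STM2457 libraries 184, 190.4, 176 and 198 CPM, so the groups were apart at 0 h (log2 -0.59, edgeR adjusted p = 0.00363) and overlapped at 12 h (log2 0.18, edgeR adjusted p = 0.472). The change in the effect of STM2457 on Psma4 between 0 and 12 h, 0.77 with SE 0.19, missed the threshold (edgeR adjusted p = 0.0117) and passed it with the library component as a covariate (0.64, edgeR adjusted p = 9.06e-04). Of the Psma4 reads 87.7% also mapped elsewhere in the genome, and on the reads that mapped to one place the change was 0.69 (edgeR adjusted p = 0.388) while the mean over the chase was still lower (-0.52, edgeR adjusted p = 3.02e-06).

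The beta ring had 4 of 7 members lower and none higher, with a median of -0.11. Among its catalytic subunits, Psmb6 carries the caspase-like site. Psmb6 held 701, 644, 715 and 639 CPM in the DMSO libraries at 12 h and 568, 585, 572 and 579 CPM in the STM2457 libraries. These did not overlap, as at 4 of the 9 times, and Psmb6 fell by 0.11 over the chase (SE 0.03, edgeR adjusted p = 4.84e-04). That call was lost in 2 of the 4 fits that left out 1 replicate number (edgeR adjusted p up to 0.0356). Psmb5, the chymotrypsin-like site, fell by 0.12 (SE 0.03, edgeR adjusted p = 0.00253), a call lost when any replicate number was left out and without the 12 libraries low on the component (-0.07, edgeR adjusted p = 0.147). Psmb7, the trypsin-like site, was at -0.04 (SE 0.06, edgeR adjusted p = 0.641). The structural subunits Psmb1 (-0.23) and Psmb4 (-0.24) fell as well.

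None of the 4 tested immunoproteasome and tissue-specific subunits passed in the edgeR fit as reported. Psmb10, whose product replaces Psmb7 in the immunoproteasome, was the only one of them with a median above 10 CPM (66.4 in DMSO, 69.03 in STM2457) and differed by 0.07 (SE 0.05, edgeR adjusted p = 0.287). Psmb9 had medians of 3.06 and 1.55 CPM (log2 -0.76, SE 0.24, edgeR adjusted p = 0.0104), and was called lower by DESeq2 (adjusted p = 0.00453) and in edgeR with RLE scaling, with no filter and with the library component as a covariate (-0.86, adjusted p = 0.00313). Psmb8 had medians of 2.32 and 1.78 CPM (log2 0.05, SE 0.26, edgeR adjusted p = 0.899). Psma8, the testis-specific alpha subunit, had medians of 8.56 and 6.64 CPM (log2 -0.29, SE 0.12, edgeR adjusted p = 0.0508).

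All 6 ATPases of the 19S base lay below 0 and 4 of them fell. Psmc6 held 266, 304, 253 and 315 CPM in the DMSO libraries at 1.5 h and 184, 171, 195 and 181 CPM in the STM2457 libraries. At 12 h it held 235, 222, 234 and 194.2 CPM against 185, 178, 181 and 194.4 CPM, where the groups met at their edge. Psmc6 fell by 0.34 over the chase (SE 0.06, edgeR adjusted p = 1.68e-06), beside Psmc3 (-0.21), Psmc2 (-0.18) and Psmc5 (-0.17), while Psmc4 (-0.13, edgeR adjusted p = 0.0401) and Psmc1 (-0.03, edgeR adjusted p = 0.763) did not pass. Both were called lower with the library component as a covariate (-0.20 and -0.18) and without the 12 low libraries (-0.20 and -0.13).

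Among the 11 other 19S subunits Psmd7 was the only one that rose and 3 fell, with a median of -0.07. The 3 were Psmd6 (-0.24, SE 0.04), Psmd13 (-0.17, SE 0.05) and Psmd14 (-0.17, SE 0.04). Psmd14 is the deubiquitinase Rpn11, which pairs with the Psmd7 product in the lid. Of the activators, Psme4, the nuclear cap PA200, fell by 0.28 (SE 0.04, edgeR adjusted p = 1.40e-07). Psme4 held 338, 318, 318 and 292 CPM in DMSO at 12 h and 272, 269.8, 263 and 259 CPM in STM2457, with no overlap. Psme1, Psme3 and the inhibitor Psmf1 did not pass, and neither did Psmc3ip (-0.12, edgeR adjusted p = 0.147).

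**Figure D2:**
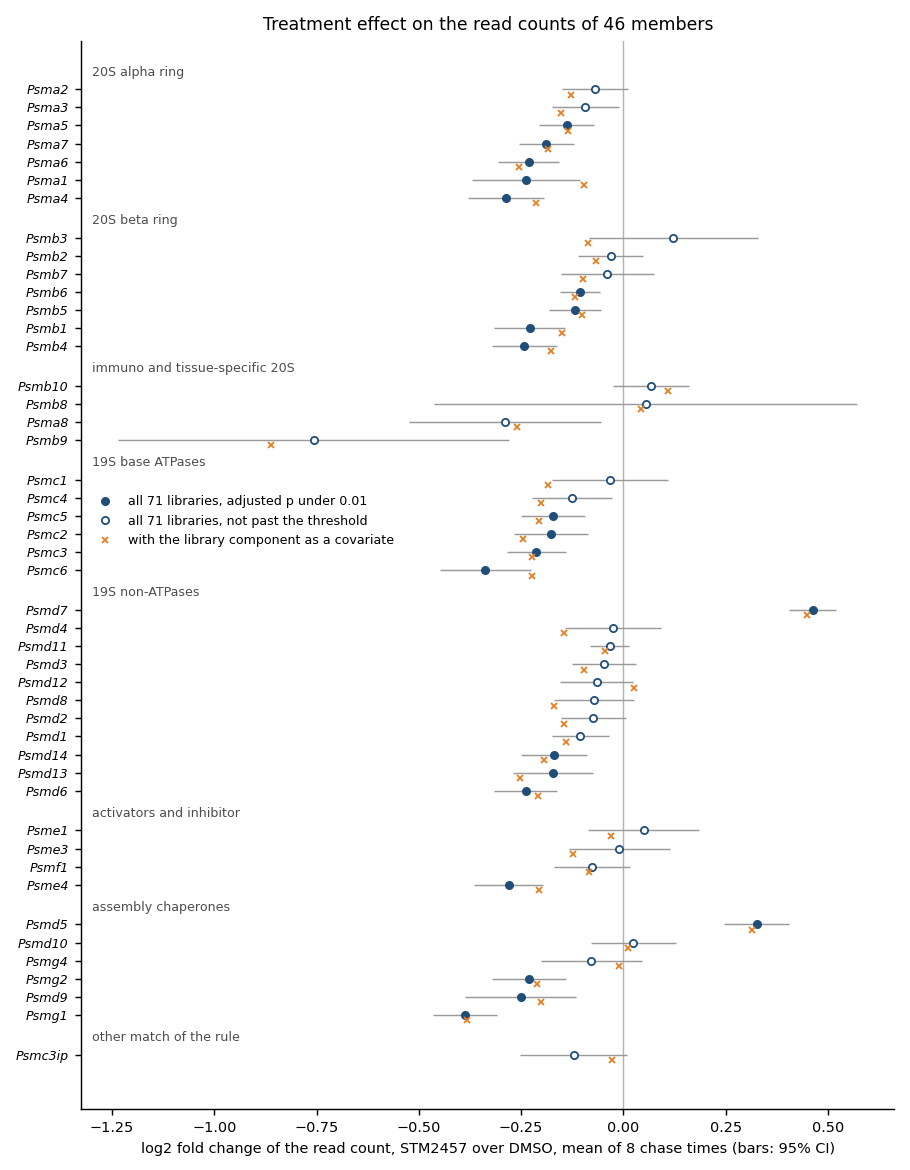
Log2 ratio of STM2457 to DMSO read counts, averaged over the 8 chase times (horizontal axis, bars 95% confidence intervals), for the 46 tested proteasome genes grouped by role, with crosses for the value when the library component is a covariate. Most points lie left of 0 (median -0.11), while Psmd7 (0.46) and Psmd5 (0.33) stand to the right.

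Many proteasome genes followed the library component, in both directions. Within groups, the correlation of the log2 level with the score over the 71 libraries, which share the scaling and the component itself, was 0.93 for Psmc1, 0.91 for Psmb3 and 0.89 for Psmd4. It was -0.88 for Psmd12, -0.87 for Psmc6 and -0.85 for Psma1. For Psmd7, Psmd5 and Psmg1 it was 0.09, 0.04 and -0.16. Psmb3, a structural beta subunit, held 539.5, 91.9, 245 and 154 CPM in the 4 DMSO libraries at 1 h and 210.2, 241, 465 and 50.5 CPM in the 4 STM2457 libraries. In the same libraries Psmc6 held 219.6, 468, 328 and 464 CPM in DMSO and 308, 255, 192 and 535 CPM in STM2457. The libraries with little Psmb3 were those with much Psmc6, in both treatments, with a within-group correlation of -0.88. The part of the component in the treatment differences was measured by a covariate and by leaving out the 12 low libraries. With the covariate 28 genes fell (13.8% of all genes) and 2 rose (14.3%), 20 of the 22 calls were shared, Psma1 and Psmd9 were lost and 10 genes were added. Without the 12 libraries 24 of 47 fell (9.48% of all genes) and 2 rose (10.5%), 19 of the 22 calls were shared, Psma1, Psmd9 and Psmb5 were lost and 7 genes were added.

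**Figure D3:**
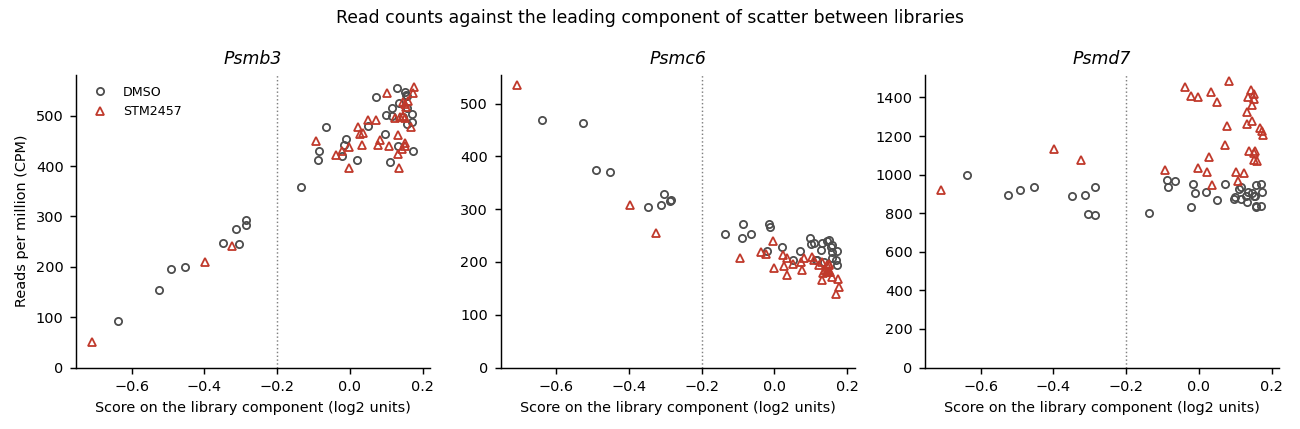
CPM (vertical axis) of Psmb3, Psmc6 and Psmd7 in the 71 libraries against the score of the leading component of the scatter within groups, with the dotted line at -0.2. Psmb3 is low and Psmc6 high in the 12 libraries left of the line, while the within-group correlation of Psmd7 with the score is 0.09.

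At single times fewer genes passed. At 1.5 h 10 proteasome genes were lower (background 4.02%), among them Psma4 (-0.70), Psma1 (-0.70), Psmc6 (-0.59) and Psmg1 (-0.47), and Psmd7 was higher (4.16%). The DMSO group at 1.5 h holds 2 of the 12 low libraries and the STM2457 group none. With the component as a covariate 3 genes were lower at this time (background 1.2%), and without the low libraries 4 (1.54%). At 5.3 h, where DMSO again holds 2 low libraries, Psmg4 (-0.79), Psme4 (-0.64), Psmb4 (-0.46) and Psmg1 (-0.41) were lower (background 1.98%) and Psmd7 (0.65) and Psmd5 (0.51) higher (2.46%). Both alternatives left 1 gene lower at 5.3 h (background 1.11% with the covariate, 0.546% without the low libraries). With the covariate 2 stayed higher (1.86%), while without the low libraries Psmd5 was lost too, which left 1 higher (1.08%). Over the 9 times together there were 17 lower calls, and leaving out replicate 2, 3 or 4 in all groups left 4, 3 and 4.

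At 0 h, and in unlabelled cells, Psma4 alone was lower (backgrounds 0.411% and 0.845%). At 1 h no proteasome gene passed edgeR's test (background 1.53%), and 12 had an unadjusted p under 0.05 (13.4% of all genes). At 2.3, 3.5 and 8 h Psmd7 alone was higher (backgrounds 1.26%, 1.04% and 1.79%), and at 12 h Psmd7 was higher (3.85%) and Psmg1 lower (1.56%). No proteasome gene passed the test of a change in the treatment effect from 0 to 12 h in edgeR (6 with an unadjusted p under 0.05, against 14.2% of all genes), while DESeq2 called 1. Among all genes edgeR called 1.11%.

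Over the 12 h of chase in DMSO, 6 proteasome genes fell (background 8.2%), namely Psma1 (-0.76), Psma4 (-0.67), Psmb1 (-0.51), Psmd12 (-0.48), Psmd6 (-0.40) and Psmb5 (-0.33). Leaving out 1 replicate number gave 1 to 7. The within-group correlation of these 6 genes with the library component was -0.88 to -0.40. In DMSO its score was -0.28 to 0.05 at 0 h and 0.10 to 0.17 at 12 h. In STM2457 Psmb2 (-0.54), Psmd6 (-0.46) and Psma6 (-0.40) fell (background 3.03%) and Psmd7 rose (1.69%). Between unlabelled cells and 0 h, Psmb10 fell by 0.71 in DMSO (edgeR adjusted p = 7.85e-04, background 0.213%). Psmb10 held 92.7, 75.8, 99.1 and 114 CPM in unlabelled DMSO libraries and 52.7, 66.9, 66.03 and 55.7 CPM at 0 h, with no overlap. No proteasome gene was called lower in this step without replicate 1, 3 or 4 or without the low libraries. In STM2457 Psmb10 differed by -0.39 (edgeR adjusted p = 0.138) and no proteasome gene passed edgeR's test (background 0.521%), with 9 at an unadjusted p under 0.05 (12.5% of all genes).

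The s4U label was read as the conversion rate, the percentage of covered T positions in the 3′ window that were sequenced as C. Pooled over the 48 genes it was 1.45% ± 0.0796 in DMSO and 1.34% ± 0.0996 in STM2457 at 0 h (SD, n = 4 each), and the treatments overlapped. At 12 h it was 0.323% ± 0.0311 in DMSO and 0.218% ± 0.00768 in STM2457, a difference of -32.7% of the DMSO mean with no overlap. Over all genes the 12 h rates were 0.279% and 0.223%, a difference of -20.04%, which the libraries as a whole shared. In unlabelled cells the pooled rates were 0.117% and 0.112%.

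For single genes the rate was tested at each time and as a slope over the chase. It fell over the chase in 45 of 46 proteasome genes in DMSO (background 89.6%) and in 43 in STM2457 (88.9%). The slope of the log2 rate was steeper in STM2457 for 13 of 46 proteasome genes (background 2.64%) and shallower for 1 (1.04%), at an adjusted p below 0.05. The median slope difference was -0.05 per h for the proteasome genes and -0.005 per h for all 11388 genes tested. The background was not matched for the label left late in the chase. The share called was higher among well-covered genes. Among genes with a mean T coverage above 10000 the background itself was 17.9% steeper and 4.35% shallower, with 18 of 35 proteasome genes steeper and 1 shallower. Without 12 h 2 steeper slopes were called, those of Psma2 and Psmc2 (background 0.299%), and 1 shallower (0.94%), and the median slope difference was -0.03 per h for the proteasome genes against 0.01 per h for all genes. Relative to the overall rate of each library 7 were steeper (background 1.19%) and 1 shallower (1.9%), and over 0 to 5.3 h none (edgeR).

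Psmd7 was the gene with the shallower slope. Its rate at 0 h was 1.23%, 1.37%, 1.33% and 1.54% in the DMSO libraries and 1.02%, 1.12%, 1.34% and 1.30% in the STM2457 libraries. At 5.3 h the rate was 0.221%, 0.227%, 0.244% and 0.268% in DMSO and 0.431%, 0.469%, 0.503% and 0.415% in STM2457. The groups overlapped at 0 h and were apart at 5.3 h, with a log2 ratio of 0.92 (edgeR adjusted p = 1.05e-05). At 8 h the Psmd7 rate was 0.180%, 0.117%, 0.143% and 0.0959% in DMSO against 0.222%, 0.283%, 0.248% and 0.254% in STM2457, again apart, with a log2 ratio of 0.91 (edgeR adjusted p = 2.37e-05). At 12 h the DMSO rates of 0.0736%, 0.0984%, 0.0890% and 0.0742% lay in the range of unlabelled DMSO cells, 0.054% to 0.102%, and the STM2457 rates of 0.112%, 0.125%, 0.148% and 0.141% lay above it. The Psmd7 slope was -0.39 per h in DMSO and -0.29 per h in STM2457, a difference of 0.09 per h (SE 0.01, edgeR adjusted p = 4.22e-07).

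The other direction was shown by Psmd3, Psmd14 and Psmb6. Psmd3, a subunit of the 19S lid, had rates of 0.227%, 0.213%, 0.181% and 0.178% at 12 h in DMSO and 0.116%, 0.0907%, 0.0931% and 0.0583% in STM2457. The groups did not overlap, with a log2 ratio of -1.15 (edgeR adjusted p = 1.74e-11). Psmd14 had 12 h rates of 0.359%, 0.280%, 0.455% and 0.603% in DMSO and 0.177%, 0.239%, 0.158% and 0.147% in STM2457, without overlap and with a log2 ratio of -1.24 (edgeR adjusted p = 1.04e-06). Psmb6 had 0.522%, 0.356%, 0.468% and 0.464% in DMSO against 0.330%, 0.292%, 0.181% and 0.2002% in STM2457, also without overlap (-0.85, edgeR adjusted p = 3.02e-05). The 12 h rates of Psmd14 in STM2457 lay around its rate in unlabelled cells (0.159% in STM2457, 0.172% in DMSO). The steeper slopes of Psmd3, Psmd14 and Psmb6 were no longer called without 12 h. Their half-lives (below) were 4.87, 4.76 and 7.43 h in DMSO and 4.75, 4.58 and 6.68 h in STM2457. The products of Psmd7 and Psmd14 bind each other in the lid, and at 12 h the rates of these genes differed between treatments in opposite directions.

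**Figure D4:**
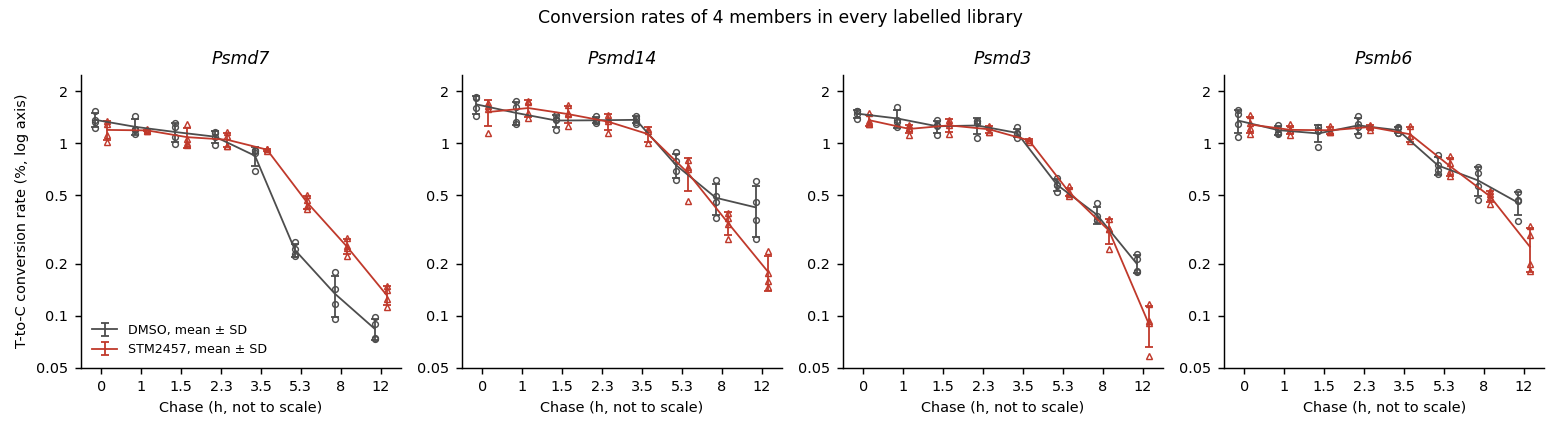
Conversion rate in percent (vertical axis, log scale) of Psmd7, Psmd14, Psmd3 and Psmb6 against hours of chase, one point per labelled library and lines and bars for the mean and SD of DMSO and STM2457. Late in the chase STM2457 lies above DMSO for Psmd7 (0.415 to 0.503 against 0.221 to 0.268% at 5.3 h) and below it for Psmd14, Psmd3 and Psmb6 at 12 h.

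At 12 h 20 of 46 proteasome genes had a lower rate in STM2457 (background 4.38%) and 1, Psmd7, a higher rate (1.0%), with a median log2 ratio of -0.62 against -0.07 over all genes. The median gene with a half-life estimate (below) kept 3.21% of its label at 12 h in DMSO and 2.47% in STM2457. Such a rate has little room to fall, and the background was not matched for the label left. Among genes with a mean T coverage above 10000, 22 of 35 proteasome genes were lower (background 25.8%) and 1 higher (2.83%), with a median of -0.64 against -0.30. The overall rate of the libraries differed by -0.32 on this scale, and relative to it 7 proteasome genes were lower (background 1.38%) and 1 higher (1.82%). At 8 h Psmc2, Psma2, Psma7 and Psmb7 were lower (background 1.11%), and at 5.3 h Psmc2 (0.0615%). Psmd7 alone was higher at 8 h (0.922%) and at 5.3 h (0.465%). No proteasome gene passed edgeR's test at 0 to 3.5 h (background 0.0% at each time) or in unlabelled cells (1.39%), with 1 at an unadjusted p under 0.05 at 1 h (1.04% of all genes), 8 in unlabelled cells (16.5%) and 0 at the remaining times. In unlabelled cells Psmb4 (1.17% in DMSO, 1.29% in STM2457) and Psmc5 (1.17% and 1.15%) carried rates close to those of labelled cells, where the median of all genes tested was 0.0613%, so their decay was read against a high floor.

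Half-lives were estimated from the rate above the unlabelled level, and 42 of the 48 genes passed the filters. The median half-life of these genes was 5.96 h in DMSO (range 3.15 to 12.5 h) and 5.48 h in STM2457 (3.64 to 9.61 h). For the 7406 genes that passed, the medians were 3.19 h and 3.45 h, and 41 of the 42 proteasome genes lay above the DMSO median of all genes. By role the DMSO median was 7.43 h for the beta ring, 6.45 h for the alpha ring, 5.89 h for the assembly chaperones, 5.80 h for the ATPases, 5.50 h for the other 19S subunits and 5.22 h for the activators. These medians were not tested against each other.

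The longest DMSO half-lives were those of Psmd9 (12.5 h), Psmb4 (11.31 h) and Psma7 (9.27 h), with 6.46, 5.53 and 5.75 h in STM2457. A replicate series joined the libraries of 1 replicate number over the chase, and whether that number links libraries across times was not tested. All series of a treatment shared the same unlabelled mean, and series 4 of STM2457 lacked 3.5 h. None of Psmd9, Psmb4 and Psma7 had a usable limma test, and their replicate series in DMSO were far apart. These gave 8.98 to 20.2 h for Psmd9 and 7.26 to 20.97 h for Psma7. For Psmb4, which has the high floor in unlabelled cells, they gave 6.78, 7.18 and 12.27 h and 6931 h, the limit of the fit. The shortest were those of Psmd5 (3.15 h), Psmd7 (3.33 h) and Psmd11 (3.82 h), with 4.501, 4.66 and 4.23 h in STM2457. For Psmd7 the 4 replicate series gave 3.299, 3.56, 3.75 and 2.81 h in DMSO and 5.46, 5.11, 4.36 and 3.66 h in STM2457, which overlapped. Between treatments 30 of the 42 genes (71.4%) had a shorter half-life in STM2457 and 12 (28.6%) a longer one. Of the 7406 genes 43.3% had a shorter and 56.7% a longer one. The median log2 ratio was -0.12 against 0.07 over all genes. Limma called none of the 36 proteasome genes with usable series (background 0.0% of 5772 genes) and 2, Psmc6 and Psmc1, had an unadjusted p under 0.05 (7.02% of all genes). Psmd7 had a log2 ratio of 0.46 (SE 0.23, limma adjusted p = 0.728). Without the 12 libraries low on the component the median log2 ratio of the proteasome genes turned to 0.05, and leaving out 1 replicate number gave -0.17 to -0.04.

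**Figure D5:**
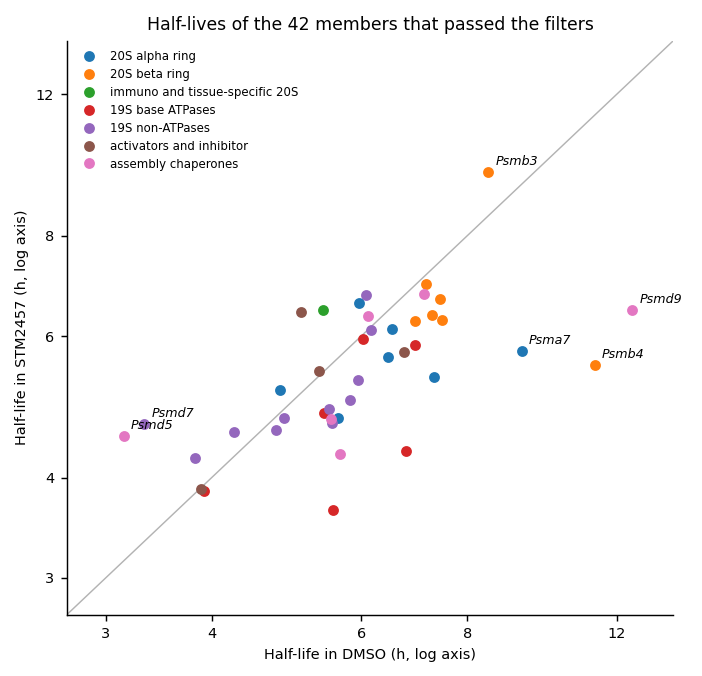
Half-life in STM2457 against half-life in DMSO (hours, both axes log scaled) of the 42 proteasome genes that passed the filters, one point per gene, coloured by role, with the diagonal of equal half-lives. Of the 42 points 30 (71.4%, against 43.3% of all 7406 genes that passed) lie below the diagonal, and Psmd7 and Psmd5, at the left, lie above it.

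GGAC followed by A, C or T, the letters at which Mettl3 mostly acts, was searched on the transcript strand of 1 GENCODE transcript per gene. In the coding sequence it was present in 45 of the 48 proteasome genes (93.8%) and in 94.9% of 19753 genes, at 4.25 and 4.29 per kb. In the 3′ UTR it was present in 26 of the 48 proteasome genes (54.2%) and in 74.6% of all genes. The 3′ UTRs of the proteasome genes were shorter, with a median of 225 bases against 828, and the density was 2.71 per kb in both sets. Psmd7, which rose, had 4 matches in a 3′ UTR of 503 bases (7.95 per kb) and Psmd5, which also rose, 6 in 2842 bases (2.11 per kb), and Psmg1, which fell, had 1 in 104 bases (9.62 per kb). By number and by density Psmd7 ranked 5 among the 48 genes. Psmf1 (9 matches) and Psma3 (8) had more and did not pass over the chase. Of the Psma3 reads 94.3% also mapped elsewhere in the genome. Psma3 was called lower on reads mapping to one place, with the library component as a covariate and without the low libraries. Psmc3 (14.7 per kb) and Psma4 (8.3 per kb) were denser and fell. Over coding sequence and 3′ UTR together the 48 genes had 0 to 15 matches, with 10 in Psmd7 and 9 in Psmd5. Psmd3 and Psmf1, which did not pass, had 14 each, and Psme4 (12) and Psmc6 (11) fell. A link between motif and change was not tested. The search was chosen after the values were seen, and a match is a description of letters, since m6A was not measured in these libraries. The 4 windows of the Psmd7 3′ UTR and 2 of those of Psmd5 are shown because these are the genes that rose, with the motif in capitals, read from the GRCm38 genome on the minus strand:
Psmd7 chr8:107580778-107580802: cagtgcttgtGGACAagcgctctgc
Psmd7 chr8:107580727-107580751: ggagatgagtGGACAaaaggacgga
Psmd7 chr8:107580488-107580512: acttgagcttGGACCcttgtgaact
Psmd7 chr8:107580452-107580476: accaccttttGGACCtgtaactagc
Psmd5 chr2:34851871-34851895: agaagagaagGGACAgcgtgtacca
Psmd5 chr2:34849768-34849792: tgggcttgcaGGACAcaggtctagg

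RefSeq promoters (GRCm38.p6, 250 bases before to 50 after the start) were matched for 40 of the 48 genes. The letters CGGAAG, the core bound by ETS-family factors, stood on either strand in 21 of the 40 (52.5%), against 17.2% of 27025 promoters. CCAAT, the NF-Y core, stood in 15 (37.5%, against 37.9% of all promoters), and TGACNNNGC, the core of antioxidant response elements, in 6 (15.0%, against 12.5%). TGACGTCA, the cAMP response element, was in 0 of the 40, which says only that these letters are absent from the windows. Of the other genes that fell, Psmb4, Psmc2, Psmd6, Psmd13 and Psmd14 hold CGGAAG. Psma1, Psma5, Psma6, Psma7, Psmb5, Psmb6, Psmc5 and Psmd9 do not, and Psmb1, Psmc3 and Psmg2 were not matched to a promoter. The windows below belong to Psmg1, Psmc6, Psma4 and Psme4, the genes with the largest decreases among those that passed, with a match in capitals on the strand of the gene. Psmg1 holds further matches that are not shown. Psma4 carries the reverse complement.
Psmg1 chr16:95991013-95991038 (-): cgcggcggacCGGAAGctcttaggtt
Psmc6 chr14:45329715-45329740 (+): gcgggccagcCGGAAGgggcggagcc
Psma4 chr9:54950747-54950772 (+): actgggagaaCTTCCGcgtcctcccg
Psme4 chr11:30771713-30771738 (+): ggccccgcccCGGAAGtgacttgagg

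Genes that work with the proteasome but lie outside the name rule were read from a list of 33, of which 31 were tested. Over the chase 7 fell (12.6% of all genes) and 3 rose (13.9%), with a median of -0.03. The shuttle factor Ubqln1 (-0.29), the proteasome-bound deubiquitinase Uchl5 (-0.29) and the ubiquitin receptor Adrm1 (-0.23) fell, as did Txnl1 (-0.42) and Ngly1 (-0.71), whose product deglycosylates the transcription factor Nfe2l1. The transcription factor gene Nfe2l2 rose (0.28). The slope of the conversion rate was steeper in STM2457 for 5 of the 31 (2.64% of all genes) and shallower for none at edgeR's threshold.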

How the data were processed

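Male mESC libraries were prepared with QuantSeq 3′ kits after iodoacetamide treatment. The authors mapped reads with SLAM-DUNK to GRCm38.p6 and deposited, per library and 3′ window, read counts, the covered T and their T-to-C conversions as counts, the conversion rate as a fraction, and CPM values. The rates and CPM were recomputed from the deposited counts. FastQC 0.11.8 is named in the submitters' processing notes. Chase hours were taken from the study, since the labels give T0 to T7 only. Totals of 4539726 to 7368244 reads per library set the precision.

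Counts (12659 genes after edgeR's filter) were TMM-scaled and tested by edgeR 4.0.16 quasi-likelihood fits over the 71 libraries (R 4.3.3), with no replicate block. Conversions were tested in 11388 genes with a mean T coverage above 100, with log covered T as the offset and without subtracting the unlabelled rate. Half-lives came from exponential fits (0.67 to 18 h, residual SE up to 0.3) and were tested on the replicate series with limma 3.58.1. Summed levels and pooled rates are given without a p, since the genes were chosen as a list. Scripts were tested on simulated data. Alternatives were RLE scaling, DESeq2 1.42.0, no filter, reads mapping to one place, the replicate block, other coverage limits, offsets and times, and leaving out replicates. The lowest chi-square per degree of freedom over 105 replicate pairs was 2.82, so no library was counted as a repeat. Of 35 same-numbered pairs 1 correlated above 0.1 in its deviations, so the numbers were not taken as pairs.

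The genes and lists were chosen with earlier results of these data known. Values are given for up to 8 genes rising and 8 falling most over the chase, the 3 longest and 3 shortest half-lives, the catalytic, immunoproteasome and tissue-specific subunits, and up to 8 partner genes, of which some are not reported here. Genes of single times, Psmb3, Psmc1, Psmd3, Psmd4, Psmd12, Psmd14, Psmb2 and the motif windows were singled out after their values were seen. Reads of Psma3, Psma4, Psma5, Psmb5 and Psmd11 also mapped elsewhere in over 20% of cases, and these levels are uncertain.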

Additional observations from a re-analysis of the deposited data

Results flagged for a closer look

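The pooled conversion rate of the proteasome genes in replicate 1 of DMSO at 2.3 h was 1.16%, apart from the other 3 replicates at 1.32% to 1.35%. It was the single sample that stood apart among 34 groups of 4 examined for the summed level and the pooled rate, and chance alone marks about 1 group in 20.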

How the results depend on the processing

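The library component, its low libraries, the coverage of 10000 and the sum without Psmd7 were chosen after seeing the data. The counts of genes lower and higher over the chase moved by less than 1.5 times under all alternatives run. The change of effect from 0 to 12 h gave 1 gene with RLE, DESeq2 or no filter. It gave 1 higher with the component (background 1.72%) and 2 higher without the low libraries (1.47%). Within STM2457 the chase gave 0 higher and 1 lower with no filter, 12 lower with the component, and 2 higher and 7 lower without the low libraries. The step to 0 h gave 2 lower in DMSO and 1 in STM2457 with the component, and 0 and 1 without the low libraries. Lower rates relative to the library's overall rate numbered 10 over all times and 7 at 12 h. Steeper slopes numbered 7 relative to the overall rate, 8 without the low libraries (background 1.56%) and 2 without 12 h. From 0 to 5.3 h there were 0, and there the slope difference of Psmc4 reversed to 0.042. Partner genes higher numbered 5 with the component. The median half-life ratio reversed to 0.0455 without the low libraries and was -0.174 to -0.0353 without 1 replicate number. The cause of these changes was not tested. Summed levels with TMM sizes differed by -454 and -413 CPM at 0 and 12 h and overlapped, and without Psmd7 by -812 and -1290 CPM.

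With the replicate block the summed levels differed by -625 CPM at 0 h and -830 CPM at 12 h and the pooled rate by -0.106% at 12 h, where 4 pairs are too few for an exact test to pass. The block changed no other call count by over 1.5 times, and the numbers do not pair the samples.

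Leaving out 1 replicate number cost Psma1, Psmd9, Psmb5 or Psmb6 their calls over the chase in at least 1 setting. Psmg1, Psmc6, Psma4, Psme4, Psmb4 and Psmd6 kept theirs, as did Psmd7 and Psmd5. The remaining genes that fell were not followed singly. Lower genes numbered 14 to 16 instead of 20, so some of the genes not followed lost their calls too, and 2 genes were higher. Over single times there were 3 to 6 higher and 3 to 13 lower calls. Over the chase 1 to 7 genes were lower in DMSO, and 0 to 1 higher and 0 to 2 lower in STM2457. Between unlabelled cells and 0 h in DMSO 0 to 1 were lower. Lower rates numbered 15 to 20 over all times and 12 to 15 at 12 h, with 0 to 1 higher at 12 h. Partner genes higher numbered 1 to 6. The pooled rate difference at 12 h was -0.121% to -0.0982%.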
